A study of Mus musculus with 24 samples.

Results

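Nrf2-null mice and wild-type mice, both with mixed reflux into the oesophagus, were compared by microarray. The group labels chose the members: 3 Nrf2-null mixed reflux arrays and 3 wild-type mixed reflux arrays, 6 of the 24 arrays of the study, which are counted as 4 of 22 samples for the reason given below. The study also holds both genotypes without reflux and with gastric or duodenal reflux. Both groups were male C57BL/6J mice of 12 weeks, with genotypes Nrf2-/- and wild type, after 4 weeks of reflux; the labels do not say how the null allele was made. Oesophageal RNA carried the dye Cy5 on each array and a common mouse reference RNA from 11 cell lines carried Cy3, without dye swaps. A level below is the log2 ratio of Cy5 over Cy3, so 0 means as much signal as in the reference RNA, and a difference is the Nrf2-null level minus the wild-type level on the log2 scale, with its standard error (SE).

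Nrf2, encoded by Nfe2l2, is a transcription factor of the basic leucine zipper family. Keap1 holds it in the cytoplasm and marks it for destruction until electrophiles or oxidants modify Keap1. Nrf2 then pairs with a small Maf protein on antioxidant response elements and turns on genes for glutathione synthesis and conjugation, quinone reduction, NADPH supply and drug export. In the squamous epithelium of the oesophagus it is also known to influence keratinisation, and reflux of gastric acid and bile exposes that epithelium to chemical stress.

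The 3 null arrays differed from each other less than repeat spots of a probe within an array did: the variance of their pairwise differences was 0.685 to 0.847 times that of repeat spots, with correlations of 0.993 to 0.994 over probes. In the other 7 groups the same ratio was 1.37 to 38.4 over 21 pairs. The labels call the 3 arrays biological replicates. They were averaged here and counted as 1 sample, against 3 wild-type samples, and the test takes the lone sample to vary like the other groups (22 samples in all). Values are still given for each null array, and their closeness does not show how much null mice vary. Where groups are said below not to overlap, or null arrays to lie above or below every wild-type array, this only describes the arrays. It adds no support, since the null is 1 sample and the largest rises and falls were named only where it held. The share of all genes without overlap was not counted. The 6 arrays were scanned on the same day, the null arrays on a slide of their own within this comparison, so slide and genotype cannot be told apart by these 6 arrays alone. The tissue tag reads oesophageal epithelium for the null arrays and whole oesophagus for the wild-type arrays, and these too cannot be told apart from genotype. Other label fields name epithelium for both groups. Markers of muscle were present in both: 27 of 27 skeletal muscle markers were well above background on all null arrays and 26 of 27 on all wild-type arrays, and 18 of 18 and 17 of 18 smooth muscle markers were. All 17 keratins tested were well above background on all 6 arrays. The Y-linked gene Ddx3y was well above background on all 6 arrays, as the male label says. Every Xist probe read below the reference on all 6. The probe at chrX:100658920-100658979 read -6.55, -6.70 and -6.80 in the null and -6.61, -7.10 and -6.78 in wild type. It was well above background on each null array and on no wild-type array, as was the probe at chrX:100659408-100659467. The cause was not tested. Outside this pair 1 array, Nrf2-null gastric reflux replicate 2, went against its male label.

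Wild-type replicate 2 stood apart from replicates 1 and 3. The mean level of 27 skeletal muscle markers was 2.71, 2.71 and 2.65 on the null arrays, against 1.55, 3.51 and 1.31 on wild-type replicates 1, 2 and 3. The 9 adipocyte markers averaged 0.22, 0.33 and 0.17 on the null arrays and 0.51, 2.92 and 0.44 on the wild-type arrays, and the 25 fibroblast markers averaged -0.32, -0.33 and -0.34 against -0.77, 0.40 and -0.76. For skeletal muscle the null arrays lay between wild-type replicate 2 and the other 2; for adipocyte markers they lay below all 3. The leading genes are given array by array so that this replicate can be followed; wild-type values are always in the order of replicates 1, 2 and 3.

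Of 20565 genes tested, 470 were higher and 238 lower in Nrf2-null than in wild-type oesophagus under mixed reflux at an adjusted p below 0.05 (limma, Benjamini-Hochberg over all genes), which is 2.29% and 1.16% of the genes tested and 3.44% in all. The median difference over all genes was 0.0056. In bulk tissue, fewer cells of a type and less RNA per cell cannot be told apart, here or below. Without wild-type replicate 1, 2 or 3 the number of calls was 387, 991 or 348, and with slide as a fixed block it was 608, of which 123 were among the 708. A fit of the 6 arrays of the comparison alone called 1 gene, Nfe2l2. Higher genes made up 66.4% of the calls. That share was 76.8% where arrays were centred on the median in place of the intensity-dependent (loess) scaling, 57.1% with the scanner software's own log ratio, 50.8% with the null arrays as 3 samples, 50% with slide as a fixed block, 49.8% with muscle list means as covariates and 48.4% where the 2 arrays with low Cy5 signal were left out, a choice made after seeing the data. Wild-type replicate 2 was the wild-type array nearest to the null in 353 of the 469 higher genes measured on all 3 wild-type arrays (75.3%) and in 153 of the 238 lower genes (64.3%).

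The deleted gene was lower on every null array. The brightest Nfe2l2 probe, at chr2:75513917-75513976 of build mm9, read -3.67, -3.65 and -3.69 on the null arrays and 2.06, 1.96 and 1.81 on the wild-type arrays, with no overlap (difference -5.62 ± 0.33, adjusted p = 8.84e-07). A nearby probe, at chr2:75513771-75513830, read -7.21, -7.12 and -7.01 against 1.89, 1.97 and 1.96. The remaining probe, at chr2:75529947-75530006, read -1.43, -1.42 and -1.51 on the null arrays and -0.52, -1.29 and -0.81 on the wild-type arrays, so that the groups lay closer there. The labels do not say which probes lie in the deleted part, so the first 2 check the genotype only as far as they do. In the other conditions the Nfe2l2 difference was -4.99 without reflux, -5.21 under gastric reflux and -5.33 under duodenal reflux. Its regulators did not pass the test: Keap1 differed by -0.57, Cul3, the ubiquitin ligase scaffold that works with Keap1, by -0.22, and Mafg, a small Maf partner, by -0.64.

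Classical Nrf2 target genes were lower in the null. Of 39 measured members of the list, 13 fell and 1 rose, where 1.16% and 2.29% of all genes did. The list's median difference was -0.86 beside 0.0056 over all genes. The number that fell was 4 with median centring, 6 with slide as a fixed block and 24 with the null arrays as 3 samples. The same list counted 10 lower and 0 higher members without reflux, 24 and 0 under gastric reflux, and 13 and 1 under duodenal reflux, where 0.0827%, 7.19% and 0.691% of all genes were called lower and 0.0875%, 10.5% and 1.21% higher. Members of the list were thus lower in the null in every condition.

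Glutathione transferases, which attach glutathione to electrophiles, led the falls. Gsta3 read -3.13, -3.22 and -3.09 in the null, against 0.46, 0.44 and 0.21 in wild type. The groups lay far apart relative to the spread among the wild-type arrays (-3.52 ± 0.31, adjusted p = 2.18e-05). Gstm1 read -0.37, -0.35 and -0.36 in the null and 2.99, 2.75 and 3.02 in wild type (-3.28 ± 0.22, adjusted p = 2.4e-06). Gstm3 read -0.54, -0.45 and -0.49 against 2.13, 2.16 and 2.38 (-2.71 ± 0.27, adjusted p = 8.5e-05). Gstm2 had 0.29, 0.17 and 0.24 in the null, against 2.93, 2.48 and 2.84 in wild type (-2.52 ± 0.28, adjusted p = 0.000255). None of these 4 genes overlapped between the genotypes. The 3 Gstm genes are close copies, so their probes may share signal. Gstp1 (-1.25 ± 0.26, adjusted p = 0.0147) and Gstt3 (-1.11 ± 0.23, adjusted p = 0.0149) also fell. That makes 6 lower and 0 higher of 22 measured transferases, where 1.16% of all genes were called lower. Gsta1, Gsta2, Gsta4 and Gstm4 had differences of -0.43, -0.35, 0.14 and -0.15 and did not pass.

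The promoter of Gsta3 is shown because among the 13 fallen targets it is the 1 whose promoter, where a sequence was given, holds the core of the antioxidant response element. The 250 bases before the RefSeq start, in build GRCm38.p6 at chr1:21240335-21240584 on the plus strand, are printed with the match to TGACNNNGC in capitals, 121 bases before the start.
Gsta3: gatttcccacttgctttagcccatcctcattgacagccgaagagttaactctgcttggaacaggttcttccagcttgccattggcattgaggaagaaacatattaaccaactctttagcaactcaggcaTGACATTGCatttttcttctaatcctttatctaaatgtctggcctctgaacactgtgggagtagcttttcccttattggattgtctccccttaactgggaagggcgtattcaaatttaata
This core was found on either strand in 10.1% of 27025 mouse promoters of that length, in 11.5% of the promoters of genes tested and in 7 of the 32 measured targets that had a sequence (21.9%). It was also found in 10.4% of promoters of genes called lower and in 6 of 31 promoters of the DNA replication genes described below (19.4%), which rose. Nqo1 and Gstm1 had no match to these letters in the window.

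Some reductases and heme enzymes fell. Of 18 quinone, aldo-keto and carbonyl reductases, 2 fell and 1 rose, with a median difference of -0.20. Of 11 heme and iron genes 2 fell and none rose, with a median of -0.72. Beside 1.16% of all genes called lower and 2.29% higher, counts this small say little about these lists. Nqo1, which reduces quinones, read -0.78, -0.85 and -0.83 on the null arrays, against 2.60, 2.17 and 2.69 on the wild-type arrays (-3.31 ± 0.30, adjusted p = 4.22e-05). Ptgr1, an alkenal and prostaglandin reductase, read 3.01, 3.08 and 3.11 against 5.22, 4.93 and 5.24 (-2.06 ± 0.26, adjusted p = 0.000521). In both genes every null array lay below every wild-type array. The reductase that rose was Akr1c18, a hydroxysteroid dehydrogenase (2.64 ± 0.65, adjusted p = 0.0322), which did not pass with slide as a fixed block (adjusted p = 0.352). Blvrb, a biliverdin reductase, differed by -1.84 ± 0.31, adjusted p = 0.00349, and Hmox1, which opens the heme ring, by -1.30 ± 0.29, adjusted p = 0.0219. Cat, the peroxide-splitting catalase, differed by -1.63 ± 0.28, adjusted p = 0.00374, and the drug exporter Abcc3 by -1.50 ± 0.32, adjusted p = 0.0169.

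Glutathione reductase ran the other way. Gsr, which regenerates reduced glutathione, read 0.18, 0.20 and 0.23 in the null and -1.12, -1.03 and -1.36 in wild type (1.38 ± 0.22, adjusted p = 0.00249). It was the 1 higher gene of the target list. Its groups did not overlap. Under gastric reflux its difference was -1.12 (adjusted p = 0.00119) and without reflux -0.65 (adjusted p = 0.262), so its direction under mixed reflux was opposite to that under gastric reflux; under duodenal reflux it was 0.73 (adjusted p = 0.0234). The glutathione synthesis genes Gclc and Gclm had differences of -1.78 (adjusted p = 0.0707) and 0.51 (adjusted p = 0.719). Txnrd1, a thioredoxin reductase, had -1.26 (adjusted p = 0.0513) and Srxn1, a sulfiredoxin, -0.80 (adjusted p = 0.283), and neither passed.

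**Figure D1:**
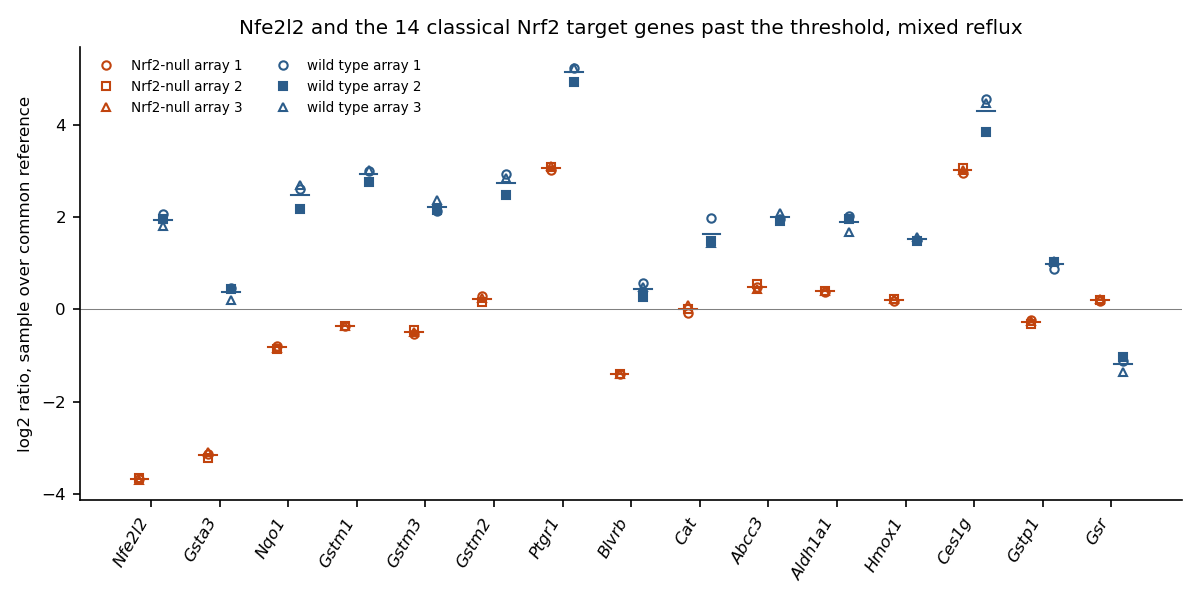
Log2 ratio of sample over common reference (vertical axis) for Nfe2l2 and the 14 classical Nrf2 target genes past the threshold, with each Nrf2-null array left and each wild-type array right of the gene's position; horizontal bars are means of 3 arrays and wild-type replicate 2 is filled. The 3 null points nearly coincide, the first 13 target genes lie lower in the null, and Gsr alone lies higher.

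Enzymes of retinoid and xenobiotic metabolism moved in both directions. Adh7, an alcohol and retinol dehydrogenase of squamous epithelium, read 2.79, 2.87 and 2.93 in the null and 5.82, 4.97 and 5.55 in wild type (-2.59 ± 0.44, adjusted p = 0.00354). Aldh1a1, which makes retinoic acid, differed by -1.49 ± 0.27, adjusted p = 0.00538. Its relative Aldh1a3 rose instead: it read 6.91, 6.87 and 6.93 on the null arrays, against 0.78, 4.69 and 0.40 on wild-type replicates 1, 2 and 3 (4.95 ± 1.09, adjusted p = 0.0172). That was the largest rise among the genes named here, and wild-type replicate 2 lay much nearer to the null than the other wild-type arrays did; with slide as a fixed block it did not pass (adjusted p = 0.146). Of 26 retinoid genes measured, 2 rose and 2 fell, beside 2.29% and 1.16% of all genes, so these counts say little about the list. Among 26 esterases, aldehyde dehydrogenases and related enzymes, Cyp2a5 (-1.89 ± 0.42, adjusted p = 0.022), Esd (-1.83 ± 0.47, adjusted p = 0.0423) and Ces1g (-1.27 ± 0.33, adjusted p = 0.0443) fell, although the Cyp2a5 difference was 0.0015 with the scanner software's own log ratio. Aldh7a1 rose (1.27 ± 0.24, adjusted p = 0.00582). With 1 rise and 3 falls, this list too is given as single genes.

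Genes that neighbour Nfe2l2 on chromosome 2 were read as a check of the region around the null allele. Of 23 measured, Rbm45, an RNA-binding protein gene, rose: 1.76, 1.79 and 1.85 in the null against -1.65, -1.51 and -1.68 in wild type (3.41 ± 0.37, adjusted p = 8.5e-05). Its difference was 3.00 (adjusted p = 2.09e-05) without reflux, 3.36 (adjusted p = 1.88e-06) under gastric reflux and 2.89 (adjusted p = 1.19e-05) under duodenal reflux. No other member passed, and Hnrnpa3, Mtx2 and Agps had differences of 0.36, 0.47 and -0.18.

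DNA replication genes rose. All 38 members of the list had a positive difference, 22 of them past the threshold where 2.29% of all genes were, none fell, and the median was 1.13. The genes of the replicative helicase were among them. Mcm3 read -0.69, -0.72 and -0.70 on the null arrays, against -2.85, -2.31 and -2.71 on the wild-type arrays (1.92 ± 0.28, adjusted p = 0.00129). Mcm4 read -0.89, -0.80 and -0.83 against -2.95, -2.41 and -3.23 (2.02 ± 0.31, adjusted p = 0.00251). Mcm2 (1.65 ± 0.26, adjusted p = 0.00239) and Mcm6 (1.55 ± 0.21, adjusted p = 0.000921) rose too, and the groups did not overlap in any of these 4 subunits. With slide as a fixed block 15 of the 38 passed, and Mcm3 (adjusted p = 0.204) and Mcm4 (adjusted p = 0.075) did not; with median centring 14 passed, and with the null arrays as 3 samples 33.

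Factors that load or start the helicase rose as well. Mcm10, which acts when the origin fires, read -0.95, -0.92 and -0.92 in the null and -3.04, -2.90 and -3.02 in wild type (2.06 ± 0.29, adjusted p = 0.000932). Cdc45, a part of the active helicase, read -1.35, -1.38 and -1.37 against -3.09, -2.97 and -3.40 (1.79 ± 0.19, adjusted p = 8.5e-05). In both genes the 3 wild-type arrays lay close together and below every null array. Gins1, another helicase partner, differed by 1.53 ± 0.27, adjusted p = 0.0042, and Chaf1b, which lays histones on new DNA, by 1.82 ± 0.31, adjusted p = 0.00406. Of the members that missed the threshold, Cdc6, which loads the Mcm complex, differed by 0.84 (adjusted p = 0.0846), and Gins2, Gins3 and Gins4 by 0.56, 0.40 and 0.40.

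The promoters of 3 Mcm genes are shown because they hold a match to the E2F motif, the element by which E2F factors switch on replication genes at the start of S phase. They are the risen members of the list, among those with a sequence given, with a match to TTTCCCGC or TTTGGCGC on either strand, printed as the 250 bases before the RefSeq start in GRCm38.p6, 5′ to 3′ on the gene's strand, with matches in capitals. Mcm5 lies at chr8:75109259-75109508 (plus strand), Mcm6 at chr1:128359706-128359955 (minus strand) and Mcm7 at chr5:138171884-138172133 (minus strand).
Mcm5: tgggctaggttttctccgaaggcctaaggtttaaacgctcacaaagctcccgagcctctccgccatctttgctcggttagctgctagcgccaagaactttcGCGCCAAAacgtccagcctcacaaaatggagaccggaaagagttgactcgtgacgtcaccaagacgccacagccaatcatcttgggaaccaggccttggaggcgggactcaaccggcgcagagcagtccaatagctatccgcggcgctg
Mcm6: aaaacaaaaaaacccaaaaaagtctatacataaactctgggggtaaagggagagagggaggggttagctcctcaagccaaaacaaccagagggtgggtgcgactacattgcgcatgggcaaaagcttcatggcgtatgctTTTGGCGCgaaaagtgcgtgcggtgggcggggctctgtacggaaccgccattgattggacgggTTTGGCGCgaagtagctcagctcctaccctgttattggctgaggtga
Mcm7: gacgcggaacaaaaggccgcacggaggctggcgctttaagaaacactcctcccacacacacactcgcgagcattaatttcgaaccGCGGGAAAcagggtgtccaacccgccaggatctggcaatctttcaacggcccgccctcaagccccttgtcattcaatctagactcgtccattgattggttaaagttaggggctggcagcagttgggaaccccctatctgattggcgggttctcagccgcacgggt
Either motif was present in 6 of 31 replication promoters (19.4%), against 2.13% of the promoters of genes tested and 1.35% of all 27025 promoters. The other matches were in Cdc6, Gins3 and Pola1, a DNA polymerase subunit gene, which did not pass. Mcm5 (1.37 ± 0.18, adjusted p = 0.00109) and Mcm7 (1.15 ± 0.28, adjusted p = 0.0348) are named for these promoters, a choice made after their values were seen.

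The replication genes stood at different levels across conditions. Their mean level was -1.09, -1.11 and -1.08 on the null arrays and -2.23, -2.07 and -2.30 on the wild-type arrays under mixed reflux. Under duodenal reflux it was -1.62, -1.41 and -1.60 in the null and -1.40, -1.35 and -1.39 in wild type. Without reflux it was -2.32, -2.27 and -2.20 in the null and -2.24, -2.16 and -2.26 in wild type. The wild-type mixed reflux arrays thus lay near those without reflux, and the null mixed reflux arrays above all 21 others. The genotype difference passed in 0 of 38 genes without reflux, in 16 (all higher) under gastric reflux and in 1 (lower) under duodenal reflux. In those conditions 0.0875%, 10.5% and 1.21% of all genes were called higher, and 0.0827%, 7.19% and 0.691% lower. Of 35 mitotic genes 1 passed, Cdk1, the kinase that drives entry into mitosis (0.82 ± 0.16, adjusted p = 0.00915). That is near the 2.29% of all genes called higher, so the count says little about the list. A positive difference was seen in 29 of the 35, with a list median of 0.42. Their mean level was -1.18, -1.19 and -1.19 on the null arrays and -1.53, -1.67 and -1.60 on the wild-type arrays. Under gastric reflux 26 of the 35 were called higher, and 0 without reflux or under duodenal reflux. Ccnb1, Ccna2 and Plk1 differed by 0.65, 0.20 and 0.78 and did not pass.

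**Figure D2:**
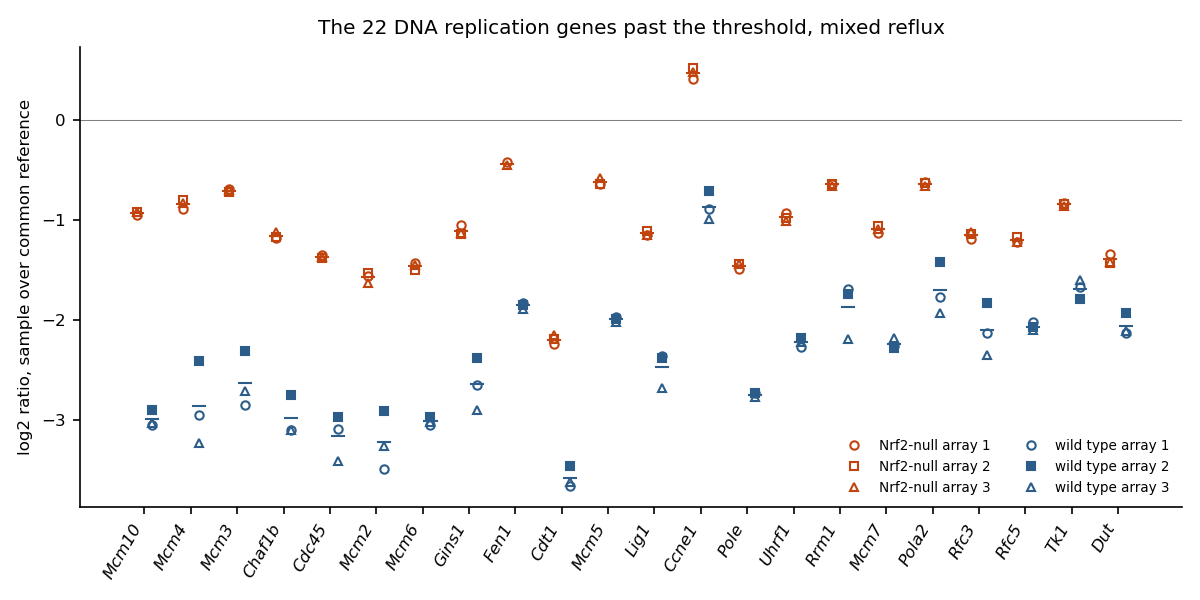
Log2 ratio of sample over common reference for the 22 DNA replication genes past the threshold, from the largest difference to the smallest, Nrf2-null arrays left and wild-type arrays right of each position. Horizontal bars are means of 3 arrays. The wild-type arrays lie below the null arrays in each gene, and the filled squares are wild-type replicate 2.

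Genes of wounded epithelium rose, under duodenal reflux as well as under mixed reflux. Of 26 measured, 8 rose and none fell, where 2.29% of all genes were called higher, with a median difference of 1.22. Mmp10, a matrix protease made at the edge of wounds, read 4.83, 4.83 and 4.97 in the null, against -0.11, 2.83 and -0.11 in wild type (4.01 ± 0.81, adjusted p = 0.01). Mmp13, a collagenase, read 1.86, 1.98 and 2.01 against -1.40, -0.66 and -1.96 (3.29 ± 0.51, adjusted p = 0.00196). Wild-type replicate 2 was the highest wild-type array for both, and for all 8 risen genes of the list, yet stayed below every null array. The list counted 5, 13 or 5 risen genes without wild-type replicate 1, 2 or 3, 4 with slide as a fixed block and 3 on arrays scanned that day, and Mmp10 did not pass with slide as a fixed block (adjusted p = 0.323). Has3, which makes hyaluronan, differed by 2.59 ± 0.46, adjusted p = 0.00429, and Mmp9, a gelatinase, by 1.64 ± 0.38, adjusted p = 0.0219. The stress keratins Krt6a, Krt6b, Krt16 and Krt17 differed by 0.41, 1.47, 1.53 and 0.58 and did not pass. The wounded epithelium list counted 8 higher members under duodenal reflux, 6 under gastric reflux and 0 without reflux. Over all genes 1.21%, 10.5% and 0.0875% were called higher there. The list's mean level under duodenal reflux was 2.52, 2.63 and 2.64 in the null and 1.77, 1.69 and 1.72 in wild type. On the null mixed reflux arrays it was 2.54, 2.53 and 2.53.

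Some ligands of the EGF receptor family rose. Areg read 3.59, 3.60 and 3.62 on the null arrays and -0.24, 1.89 and 0.47 on the wild-type arrays (2.89 ± 0.54, adjusted p = 0.00582). Epgn, or epigen, read 5.87, 5.79 and 5.61 against 1.37, 4.32 and 1.09 (3.49 ± 0.76, adjusted p = 0.0163). In both genes wild-type replicate 2 was the highest wild-type array and still below every null array. Hbegf (1.59 ± 0.40, adjusted p = 0.0368) and Nrg1, a ligand of ERBB3 and ERBB4 (2.46 ± 0.38, adjusted p = 0.00196), also rose. Thus 4 of 16 family members rose, where 2.29% of all genes were called higher. Ereg, Btc, Egf and Tgfa had differences of 0.55, -0.10, -0.69 and 0.67. The list counted 4 higher members under gastric reflux, 2 under duodenal reflux and 0 without reflux. In those conditions 10.5%, 1.21% and 0.0875% of all genes were called higher.

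Chemokines that draw neutrophils rose, as did the growth factor Csf3 that drives their production. Cxcl1 read -1.23, -1.16 and -1.19 in the null and -4.96, -3.33 and -5.06 in wild type (3.26 ± 0.54, adjusted p = 0.00291). Cxcl3 read 4.59, 4.72 and 4.62 against 1.40, 2.50 and 0.82 (3.07 ± 0.55, adjusted p = 0.00429), and Csf3 4.27, 4.30 and 4.18 against 0.12, 2.21 and 0.35 (3.36 ± 0.56, adjusted p = 0.00287). Csf3 was well above background on 1 of the 3 wild-type arrays, and the null arrays lay above every wild-type array in the 3 genes. Cxcl2 was not well above background on any wild-type array and was at least 4.15-fold higher in the null by Cy5 signal alone (adjusted p = 0.0145 for the ratio); the mean log2 ratios were 1.81 and -0.23, a difference of 2.04. Such a bound sets the null mean of the Cy5 signal against, on each wild-type array, the higher of the probe's own Cy5 signal and the lowest Cy5 signal well above background. It leaves out Cy3, so it need not lie below the fold of the ratios. Ppbp, a platelet chemokine, rose by 3.42 ± 0.75, adjusted p = 0.0169. That makes 5 of the 15 genes of the list of CXC chemokines and Csf3 higher and none lower, beside 2.29% and 1.16% of all genes. The list counted 1 higher gene with the scanner software's log ratio or on the values of the authors' deposited table, 2 on arrays scanned that day or where all 6 arrays had to be well above background, and 8 with the null arrays as 3 samples. Cxcl5 (3.43, adjusted p = 0.154), Cxcl9 (-0.04) and Cxcl10 (0.88) did not pass. The list counted 2 higher members under duodenal reflux, 1 under gastric reflux and 0 without reflux, and none lower. Its median differences there were 0.99, 0.44 and 0.12. Over all genes 1.21%, 10.5% and 0.0875% were called higher in those conditions.

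The promoters of Cxcl1, Cxcl2 and Cxcl3 are shown because all 3 hold the same NF-kB match, GGAATTTCC, in capitals, 70, 96 and 72 bases before the start. They are given as above, on the plus strand of GRCm38.p6: Cxcl1 at chr5:90890995-90891244, Cxcl2 at chr5:90903649-90903898 and Cxcl3 at chr5:90785851-90786100.
Cxcl1: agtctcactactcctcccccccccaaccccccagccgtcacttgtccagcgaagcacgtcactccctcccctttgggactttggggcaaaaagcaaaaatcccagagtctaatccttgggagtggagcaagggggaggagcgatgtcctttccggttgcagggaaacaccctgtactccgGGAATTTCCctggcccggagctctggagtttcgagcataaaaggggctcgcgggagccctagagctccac
Cxcl2: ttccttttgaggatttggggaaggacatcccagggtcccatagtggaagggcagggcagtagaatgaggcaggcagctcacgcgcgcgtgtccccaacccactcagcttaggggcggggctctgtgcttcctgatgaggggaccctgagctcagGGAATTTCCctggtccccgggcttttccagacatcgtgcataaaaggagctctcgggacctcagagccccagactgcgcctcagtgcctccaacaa
Cxcl3: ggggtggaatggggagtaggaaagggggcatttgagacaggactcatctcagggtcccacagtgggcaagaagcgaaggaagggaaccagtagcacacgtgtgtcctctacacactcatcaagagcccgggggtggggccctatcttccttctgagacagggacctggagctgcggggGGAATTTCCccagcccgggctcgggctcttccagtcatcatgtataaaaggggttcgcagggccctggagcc
GGACTTTCC or GGAATTTCC on either strand was present in 5 of 12 promoters of the CXC list (41.7%). The share was 0.681% for the promoters of genes tested and 0.57% for all promoters. The other matches were in Cxcl10 and Csf1, which differed by 0.88 and -0.21 and did not pass. Cxcl1, Cxcl2 and Cxcl3 are related copies on 1 chromosome, so their promoters may share descent. The list of NF-kB feedback and adhesion targets counted 6 higher and 0 lower of 27, beside 2.29% and 1.16% of all genes. Among the higher were Ptgs2, the inducible cyclooxygenase (2.44 ± 0.59, adjusted p = 0.0304), the adhesion molecule P-selectin, Selp (1.93 ± 0.49, adjusted p = 0.0368), the apoptosis inhibitor Birc3 (1.21 ± 0.28, adjusted p = 0.0219) and the chemokine Ccl20 (1.90 ± 0.32, adjusted p = 0.00294). Nfkb1 also passed (1.14 ± 0.27, adjusted p = 0.0294), but its 3 other probes had the opposite sign. Nfkbia, the first feedback inhibitor, differed by 0.23 and did not pass.

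Cytokines of epithelial stress rose. Il24, a cytokine of the interleukin 10 family made by injured epithelium, read 3.45, 3.39 and 3.49 on the null arrays, against 0.86, 1.03 and 0.42 on the wild-type arrays (2.67 ± 0.25, adjusted p = 2.74e-05). The null arrays lay above every wild-type array, and wild-type replicate 2 stood less apart than in the chemokines. Il11, which signals through gp130, read 2.43, 2.47 and 2.41 against -1.01, 0.54 and -0.88 (2.89 ± 0.44, adjusted p = 0.00179), and Il6 read 0.27, 0.28 and 0.29 against -3.11, -1.01 and -3.17 (2.71 ± 0.70, adjusted p = 0.0418). Il23a was not well above background on any wild-type array and was at least 3.70-fold higher in the null (adjusted p = 0.00126; measured means 1.73 and -0.20). The receptor chain Il20ra (1.82 ± 0.48, adjusted p = 0.0452), the inhibitor Socs3 (1.26 ± 0.28, adjusted p = 0.0175) and Osm (0.89 ± 0.17, adjusted p = 0.00826) rose too. That gave 7 higher and 0 lower of 28, beside 2.29% and 1.16% of all genes, with a list median of 0.15. Il1b, Il1a and Il19 differed by 2.49, 0.96 and 3.59 and did not pass. The list counted 4 higher and 0 lower members under duodenal reflux, 4 and 1 under gastric reflux, and 0 and 0 without reflux. Over all genes 1.21%, 10.5% and 0.0875% were called higher there.

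Of 21 neutrophil markers 7 rose and none fell, where 2.29% of all genes were called higher, with a median of 1.04. None passed on arrays scanned that day, 1 on the values of the authors' deposited table or where all 6 arrays had to be well above background, 2 with the scanner software's log ratio, and 4, 10 or 4 without wild-type replicate 1, 2 or 3. Their mean level was 2.80, 2.78 and 2.75 on the null arrays, against 1.08, 2.01 and 1.01 on the wild-type arrays. Wild-type replicate 2 lay between the null arrays and the other 2 wild-type arrays. Under duodenal reflux the mean level was 2.67, 2.39 and 2.78 in the null and 1.92, 1.90 and 1.91 in wild type. The list counted 4 higher members under duodenal reflux, 4 under gastric reflux and 0 without reflux, and none lower. Over all genes 1.21%, 10.5% and 0.0875% were called higher there. Retnlg, a resistin-like protein of neutrophils, rose most (3.99 ± 0.71, adjusted p = 0.0042). Csf3r, the receptor for Csf3, read 3.29, 3.53 and 3.25 against 0.72, 1.80 and 0.47 (2.36 ± 0.48, adjusted p = 0.011). Mmp8, a neutrophil collagenase, differed by 2.73 ± 0.51, adjusted p = 0.00596, the peptide receptor Fpr1 by 1.69 ± 0.45, adjusted p = 0.0454 and Lcn2 by 2.33 ± 0.62, adjusted p = 0.048. Of these, Retnlg, Mmp8 and Csf3r were well above background on only 1 wild-type array. Cxcr2, Prtn3 and Il1r2 differed by 0.15, -0.20 and -0.34 and did not pass, while 19 of the 21 markers had a positive difference. S100a8 and S100a9 differed by 3.51 (adjusted p = 0.103) and 0.94 (adjusted p = 0.342).

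**Figure D3:**
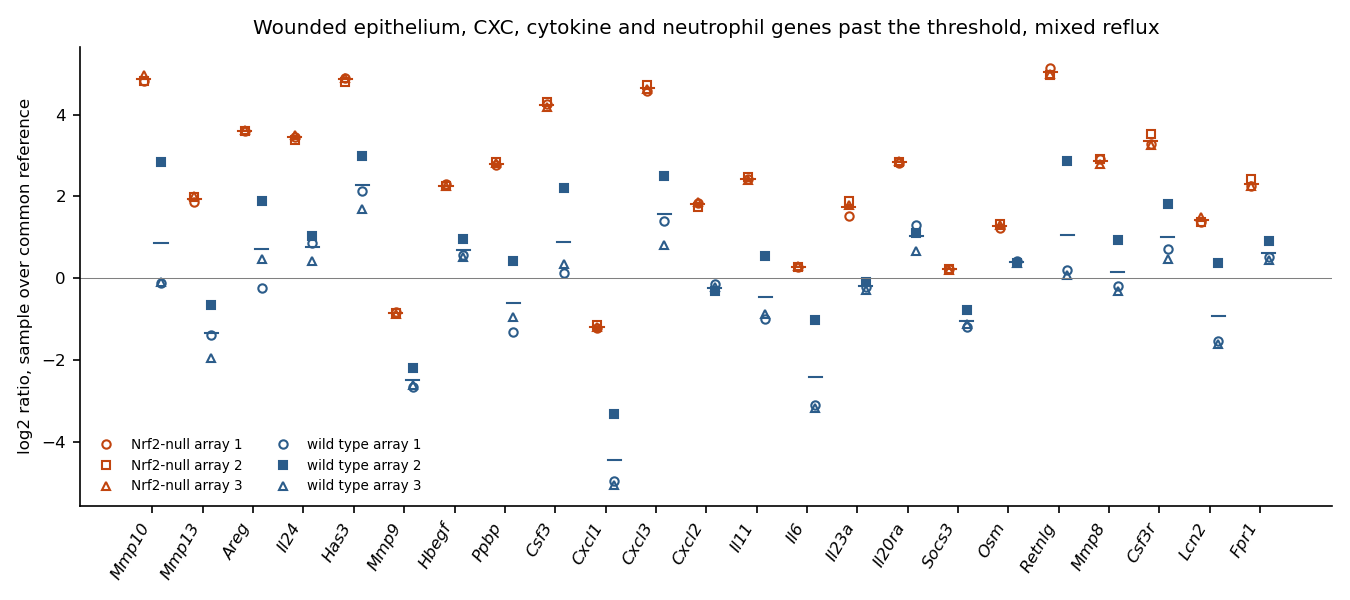
Log2 ratio of sample over common reference for the wounded epithelium, CXC chemokine and Csf3, Il24-related and neutrophil genes past the threshold and reported here, each gene drawn once, Nrf2-null arrays left and wild-type arrays right. Horizontal bars are means of 3 arrays. The filled squares show wild-type replicate 2, which in most of these genes lies between the null arrays and the other 2 wild-type arrays.

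Chaperones rose in part. Of 14 heat shock genes 4 rose: Hsph1 (2.06 ± 0.48, adjusted p = 0.0307), Hspa1a (1.54 ± 0.37, adjusted p = 0.0323), Hsp90aa1 (1.44 ± 0.31, adjusted p = 0.0158) and the mitochondrial cochaperone Hspe1 (0.86 ± 0.18, adjusted p = 0.0142), with a list median of 0.88 and none lower. Hsp90aa1 read -0.29, -0.30 and -0.26 in the null and -1.72, -1.43 and -2.02 in wild type, without overlap. Of 23 genes of the unfolded protein response 5 rose, with a median of 0.51. Beside both lists, 2.29% of all genes were called higher. Hspa5, the main chaperone of the endoplasmic reticulum, read -0.01, -0.06 and -0.05 against -1.47, -1.01 and -1.44 (1.26 ± 0.33, adjusted p = 0.048), and did not pass with slide as a fixed block (adjusted p = 0.946). Asns, asparagine synthetase, differed by 1.09 ± 0.28, adjusted p = 0.0418, and Creld2, Pdia6 and Dnajb11 by 1.08, 0.99 and 0.85 (adjusted p = 0.0199, 0.0142 and 0.0219); 1 of the 3 other Pdia6 probes had the opposite sign. In the list of 21 p53 targets 1 gene rose, Pmaip1, which encodes Noxa (2.59 ± 0.42, adjusted p = 0.00249). In the same list 1 fell, Gadd45b (-1.22 ± 0.28, adjusted p = 0.028). Beside 2.29% and 1.16% of all genes, these counts say little about that list. Cdkn1a and Mdm2 had differences of -0.29 and -0.17.

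Few squamous genes were called. Over all genes 2.29% were called higher and 1.16% lower, so counts this small in short lists say little about the squamous programme. None of 17 keratins, 19 desmosome and adherens junction genes or 19 claudin and tight junction genes passed, and Krt4, Krt13, Krt5 and Krt14 differed by 0.05, 0.53, 0.09 and 0.37. Of 32 cornified envelope and late squamous genes, Mal, a membrane traffic protein (2.74 ± 0.54, adjusted p = 0.00839), and Sprr2g, a small proline-rich envelope protein (2.00 ± 0.51, adjusted p = 0.0394), rose, and Lor, Ivl and Flg had differences of -0.18, -0.60 and -0.10. Trp63, the master factor of basal cells, differed by -0.14. Of 27 columnar and intestinal markers, Spdef, a factor of mucous cells, read 4.06, 4.21 and 4.07 in the null against 0.38, 1.82 and 0.21 in wild type (3.31 ± 0.52, adjusted p = 0.00228). Reg3b, an antimicrobial lectin, was not well above background on any null array and was at least 2.97-fold lower there (adjusted p = 0.0398; measured means 0.05 and 1.80). The columnar keratins Krt7, Krt8 and Krt19 differed by -0.39, -1.01 and -0.58 and did not pass. Of 23 acid-base and anion transporters, Slc26a4, the anion exchanger pendrin, read 4.40, 4.42 and 4.34 against -1.20, 2.66 and -1.43 (4.37 ± 1.02, adjusted p = 0.0244), and Car2, a cytosolic carbonic anhydrase, 3.40, 3.43 and 3.44 against -0.24, 1.71 and -0.47 (3.09 ± 0.79, adjusted p = 0.038). In both, replicate 2 was the highest of the wild-type arrays, nearer to the null than to the other 2.

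Of 18 smooth muscle markers, 2 contractile genes fell and none rose, where 1.16% of all genes were called lower, with a list median of -1.03. Cnn1, or calponin, read 2.75, 2.72 and 2.73 in the null, against 4.85, 5.21 and 5.36 in wild type (-2.41 ± 0.40, adjusted p = 0.00349), and Tagln, or transgelin, read -0.72, -0.81 and -0.88 against 1.39, 1.84 and 1.36 (-2.33 ± 0.43, adjusted p = 0.00694). The null arrays lay below every wild-type array in both genes, and Cnn1 did not pass with slide as a fixed block (adjusted p = 0.0797). The list's mean level was 0.99, 0.97 and 0.96 on the null arrays and 1.54, 2.53 and 1.67 on the wild-type arrays, and the part of tissue make-up in this result was not tested. Myh11, Acta2 and Actg2, also contractile genes, differed by -0.38, -1.69 and -0.41 and did not pass. None of 27 skeletal muscle markers passed (list median 0.88), nor did any of 25 fibroblast, 18 endothelial, 28 macrophage, 17 T and NK cell or 34 interferon-stimulated genes.

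Several of the largest changes lay outside the lists. Pbp2, a phosphatidylethanolamine-binding protein gene, read 4.04, 3.99 and 3.92 on the null arrays and -1.06, 0.14 and -0.80 on the wild-type arrays (4.56 ± 0.42, adjusted p = 2.74e-05). Bhlhe22, a transcription factor gene, read 5.54, 5.67 and 5.51 against 0.35, 2.67 and 0.43 (4.43 ± 0.78, adjusted p = 0.00391), and was well above background on 1 wild-type array. Replicate 2 again lay between the null and the other wild-type arrays in both genes. Slc6a14, an amino acid importer (4.06 ± 0.75, adjusted p = 0.00565), Nppb, the natriuretic peptide B gene (3.96 ± 0.81, adjusted p = 0.0108), Pthlh, the parathyroid hormone-like hormone (3.93 ± 0.83, adjusted p = 0.0132), and B3galt5, a galactosyltransferase (3.73 ± 0.63, adjusted p = 0.00327), rose as well. On the other side, Mboat2, a lysophospholipid acyltransferase, read -1.17, -0.99 and -0.94 in the null against 2.60, 2.77 and 2.50 in wild type (-3.65 ± 0.48, adjusted p = 0.000986), the largest fall after Nfe2l2 among the genes named. Ccdc74a (-2.43 ± 0.41, adjusted p = 0.00313), Sec14l4 (-2.27 ± 0.43, adjusted p = 0.00737) and Pcdhb8 (-2.34 ± 0.55, adjusted p = 0.0244) fell too, the last with signal well above background on 1 null array. Rapgef4 passed with -2.39 ± 0.51, adjusted p = 0.0145, but its other probe had the opposite sign.

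Other lists held 1 or 2 calls each. Over all genes 2.29% were called higher and 1.16% lower, so these calls are given as single genes and not as results about the lists. The immediate early genes Arc (3.99 ± 0.70, adjusted p = 0.00377) and Ier3 (1.38 ± 0.27, adjusted p = 0.00963) rose, 2 of 27. Of 29 genes of the sterol list 2 rose, among them the fatty acid desaturase Scd2 (1.22 ± 0.29, adjusted p = 0.0326). Wnt5a, a Wnt ligand (1.33 ± 0.29, adjusted p = 0.0169), Il1rl1, the receptor for interleukin 33 (1.15 ± 0.26, adjusted p = 0.019), and Col18a1, a basement membrane collagen (2.09 ± 0.47, adjusted p = 0.0192), rose in lists of 26, 16 and 19 genes. Nfil3, a clock-linked repressor (0.87 ± 0.21, adjusted p = 0.0253), Tubb3, a neuronal tubulin (1.43 ± 0.29, adjusted p = 0.011), and Siglecf, an eosinophil lectin (0.95 ± 0.24, adjusted p = 0.0386), rose in lists of 19, 13 and 13. Pparg, the adipocyte transcription factor, fell (-1.53 ± 0.36, adjusted p = 0.0244), the 1 call among 9 adipocyte markers. None of 55 oxidative phosphorylation, 18 TCA cycle or 30 hypoxia genes passed. Among the genes named so far that passed, Ptgs2, Ppbp and Slc26a4 were well above background on 1 wild-type array, and Il6, Lcn2, Ccl20, Aldh7a1 and Pbp2 on 2.

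The genotype difference under mixed reflux was then set against the mean of the genotype differences in the other 3 conditions. The 2 differed in 414 genes (2.01% of those tested), 251 of them more positive under mixed reflux. Of 39 classical targets 4 passed this test, beside the 2.01% of all genes. Nqo1, Gstm1, Gstm3 and Ptgr1 did not pass it, with -0.45, -0.70, -0.55 and -0.50, which does not show that their differences were equal. Gsta3 fell further under mixed reflux (-1.63 ± 0.34, adjusted p = 0.0191), and so did Gstm2 (-2.19 ± 0.31, adjusted p = 0.00319), while Gsr was more positive (1.72 ± 0.24, adjusted p = 0.0024). Gstm2 averaged 0.23 in null mixed reflux arrays, given here and below without SD since they count as 1 sample, and 2.75 ± 0.24 in wild-type mixed reflux arrays (SD, n = 3). Under gastric reflux it averaged 2.25 ± 0.37 in null and 2.06 ± 0.36 in wild type (SD, n = 3 each), where the null was not the lower group.

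Replication genes made up part of the 414: 16 of the 38 passed. The genotype difference of Mcm3 was more positive under mixed reflux (2.02 ± 0.30, adjusted p = 0.00319). Its mean was -0.71 in null and -2.62 ± 0.28 in wild type under mixed reflux, and -1.78 ± 0.41 in null and -1.18 ± 0.01 in wild type under duodenal reflux. The genotypes thus stood in opposite order in these 2 conditions. Cdc45 (1.89 ± 0.21, adjusted p = 0.000524), Mcm4 (1.99 ± 0.34, adjusted p = 0.00912), Mcm10 (1.76 ± 0.31, adjusted p = 0.00847), Mcm2 (1.76 ± 0.29, adjusted p = 0.00511), Mcm6 (1.60 ± 0.23, adjusted p = 0.00276), Chaf1b (1.55 ± 0.34, adjusted p = 0.0273) and Gins1 (1.28 ± 0.29, adjusted p = 0.0307) passed as well.

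The largest positive departures were in Car2 (4.47 ± 0.85, adjusted p = 0.0123), Bhlhe22 (4.14 ± 0.84, adjusted p = 0.0159), Ajap1, an adherens junction-associated protein gene (4.05 ± 0.74, adjusted p = 0.00966), and Glycam1, a mucin-like glycoprotein (4.00 ± 0.56, adjusted p = 0.0024). Clstn2 (3.74 ± 0.74, adjusted p = 0.0144), Idi2, an isopentenyl diphosphate isomerase (3.70 ± 0.39, adjusted p = 0.000524), Akr1c18 (3.67 ± 0.70, adjusted p = 0.0125), and Plch1, a phospholipase C (3.66 ± 0.66, adjusted p = 0.00912), followed. The largest negative departures were in F13a1, a chain of coagulation factor XIII (-2.98 ± 0.74, adjusted p = 0.0482), Retnla, a marker of alternatively activated macrophages (-2.88 ± 0.70, adjusted p = 0.0452), Mboat2 (-2.84 ± 0.54, adjusted p = 0.0135) and Ccnt2, a cyclin T (-2.73 ± 0.65, adjusted p = 0.0428). Cd163, a macrophage scavenger receptor (-2.73 ± 0.48, adjusted p = 0.00779), Cnn1 (-2.50 ± 0.44, adjusted p = 0.00982), Ccdc74a (-2.49 ± 0.44, adjusted p = 0.00849) and Rnf32 (-2.46 ± 0.48, adjusted p = 0.0135) came next. Glycam1, Akr1c18 and Plch1 were well above background on 1 wild-type mixed reflux array, and Ajap1 and Clstn2 on 2.

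**Figure D4:**
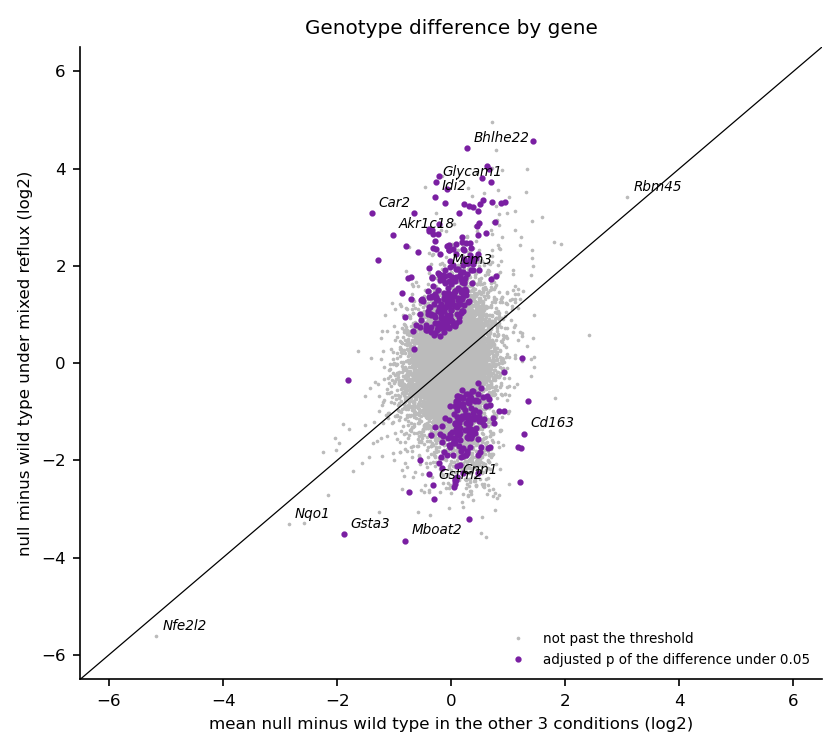
Genotype difference (Nrf2-null minus wild type, log2) under mixed reflux on the vertical axis against the mean of that difference in the other 3 conditions on the horizontal axis, 1 point per gene; the line marks equal values. Purple points are the 414 genes whose differences departed from each other past the threshold. Nfe2l2, Nqo1 and Rbm45 lie near the line, and Glycam1, Idi2 and Bhlhe22 lie far above it.

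Set against duodenal reflux alone, the genotype difference departed in 353 genes (1.72%). Among the upward departures below, that of Bhlhe22 turned sign on the values of the authors' deposited table. Levels of 2 genes with upward departures ran high in the null under mixed reflux and in wild type under duodenal reflux. Akr1c18 read 3.41, 3.42 and 3.26 in null and -0.16, 2.47 and -0.15 in wild-type mixed reflux arrays; under duodenal reflux it averaged 1.09 ± 0.26 in null and 4.20 ± 0.13 in wild type (SD, n = 3 each). Its genotype difference was thus of opposite sign in the 2 conditions, 2.64 ± 0.65 and -3.12 (adjusted p = 0.00203), a departure of 5.76 ± 0.79, adjusted p = 0.00176. Idi2 averaged 4.15 in null and 0.73 ± 0.75 in wild type under mixed reflux, and 2.43 ± 0.29 in null and 3.66 ± 0.12 in wild type under duodenal reflux (4.65 ± 0.45, adjusted p = 0.000182). Glycam1 (4.68 ± 0.64, adjusted p = 0.0017), Bhlhe22 (4.60 ± 0.95, adjusted p = 0.0205), Car2 (4.37 ± 0.96, adjusted p = 0.0307), Gabrp, a GABA receptor subunit (4.65 ± 0.70, adjusted p = 0.00294), Dach1 (4.21 ± 0.85, adjusted p = 0.0188) and Npl, which cleaves sialic acid (4.15 ± 0.84, adjusted p = 0.0185), also departed upward.

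For the macrophage genes Cd163 and Retnla, wild type under duodenal reflux had the lowest of the 4 group means. Cd163 averaged 3.21 in null and 4.66 ± 0.19 in wild type under mixed reflux, and 4.91 ± 0.09 in null and 1.40 ± 0.11 in wild type under duodenal reflux (-4.97 ± 0.54, adjusted p = 0.000364). Retnla averaged 3.71 in null and 5.43 ± 0.21 in wild type under mixed reflux, and 5.02 ± 1.17 in null and 1.87 ± 0.18 in wild type under duodenal reflux (-4.88 ± 0.79, adjusted p = 0.0053). Neither gene passed in the mixed reflux comparison itself (adjusted p = 0.0835 and 0.173). F13a1 (-4.52 ± 0.83, adjusted p = 0.0124), Mboat2 (-3.41 ± 0.59, adjusted p = 0.01), Ccnt2 (-3.34 ± 0.74, adjusted p = 0.0325), Cnn1 (-3.32 ± 0.49, adjusted p = 0.00325), Tagln (-3.17 ± 0.52, adjusted p = 0.00723) and Ccl24, an eosinophil chemokine (-2.89 ± 0.56, adjusted p = 0.0152), departed downward too.

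**Figure D5:**
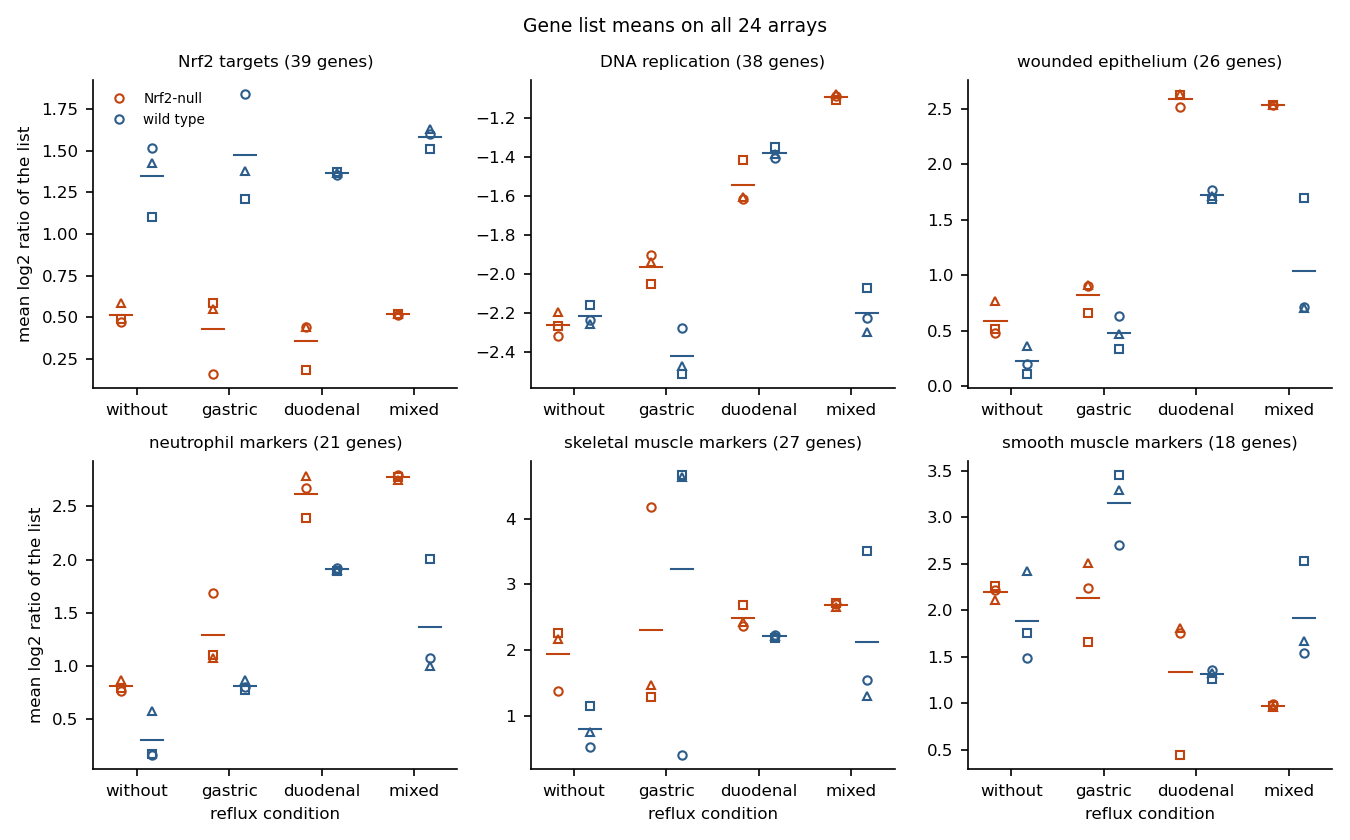
Mean log2 ratio of 6 gene lists on each of the 24 arrays by reflux condition, Nrf2-null left and wild type right; marker shapes are replicates 1 (circle), 2 (square) and 3 (triangle) and bars are means of 3 arrays. The Nrf2 targets are lower in the null in every condition, the replication genes of wild-type mixed reflux lie near those without reflux (replicate 2, at -2.07, above them all), and wild-type mixed reflux replicate 2 lies apart from the other 2 in the wound, neutrophil and muscle lists.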

How the data were processed

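Oesophageal RNA of 24 mouse samples was measured on 2-colour Agilent arrays. The scanner files hold spot intensities read by Agilent Feature Extraction, versions 10.5.1.1 and 10.7.3.1 per the file headers (9.1 per the submitters' processing notes), as deposited. Their log10 ratios of Cy5 over Cy3 were background-subtracted and dye-normalized by that software, per the file headers, and served as an alternative. The authors' deposited value table holds log2 ratios whose normalization is not stated, and was another alternative.

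Mean spot intensities were background-corrected with normexp (offset 50) and scaled within each array by loess in limma 3.58.1 under R 4.3.3. Of 45018 spots per array, 1639 were controls, left out of the tests, and 43379 were kept for 41174 probes. Probes were named by accession (26918), symbol (5082) or older symbol (817) in RefSeq tables, and 8357 kept the name on the array. The brightest probe over all 24 arrays stood for its gene, and 20565 genes whose probe was well above background throughout 1 or more groups were tested. A group-means model over 22 samples (residual degrees of freedom 14, prior 2.90) was tested with lmFit and eBayes, with Benjamini-Hochberg adjusted p below 0.05 as the threshold. The number of arrays limits the precision. The p-values measure the spread within the groups other than null mixed reflux, most of which had another reflux condition. They hold no spread between null mixed reflux mice, since that group counts as 1 sample. The scripts were tested on simulated data.

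Genes were named by a rule: the 15 largest rises and 15 largest falls past the threshold with groups that do not overlap, up to 8 passing and 4 other members of each list, the 8 largest departures in each direction of each comparison between conditions, Nfe2l2 and genes near it, and Xist and Ddx3y. Figures show every list member past the threshold, except a few genes that are not reported here. Members and lists were chosen with earlier results of these data known, so counts within them are descriptions. Promoters are from RefSeq (GRCm38.p6) and probe coordinates from the array annotation (mm9). Alternatives covered the blocks for slide, scan day and replicate number, background, scaling, filters, probe choice and samples left out; the last also covered the 2 arrays of low Cy5 signal and null gastric reflux replicate 2, added after seeing the data.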

Additional observations from a re-analysis of the deposited data

Results flagged for a closer look

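The genotype difference (Nrf2-null minus wild type, log2) departed under mixed reflux from the mean of the other 3 conditions in 414 genes, by limma's test of the difference itself. Among the classical Nrf2 targets these were Gsta3 (-1.63), Gstm2 (-2.19), Gsr (1.72) and the aldo-keto reductase Akr1b8 (1.45), which did not pass under mixed reflux itself (-0.35) and is named here after its values were seen. Among the replication genes named in the text they were Mcm10 (1.76), Mcm4 (1.99), Mcm3 (2.02), Chaf1b (1.55), Cdc45 (1.89), Mcm2 (1.76), Mcm6 (1.60) and Gins1 (1.28). The departures of the other named genes were positive for Car2 (4.47), Bhlhe22 (4.14), Ajap1 (4.05), Glycam1 (4.00), Clstn2 (3.74), Idi2 (3.70), Akr1c18 (3.67) and Plch1 (3.66), and negative for F13a1 (-2.98), Retnla (-2.88), Mboat2 (-2.84), Ccnt2 (-2.73), Cd163 (-2.73), Cnn1 (-2.50), Ccdc74a (-2.49) and Rnf32 (-2.46).

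Against duodenal reflux alone the genotype difference departed in 353 genes. The named ones were positive for Akr1c18 (5.76), Glycam1 (4.68), Gabrp (4.65), Idi2 (4.65), Bhlhe22 (4.60), Car2 (4.37), Dach1 (4.21) and Npl (4.15), and negative for Cd163 (-4.97), Retnla (-4.88), F13a1 (-4.52), Mboat2 (-3.41), Ccnt2 (-3.34), Cnn1 (-3.32), Tagln (-3.17) and Ccl24 (-2.89). Without wild-type mixed reflux replicate 1, 2 or 3 the 414 genes became 193, 801 or 204 and the 353 became 177, 710 or 155. With slide as a fixed block the 353 became 85. In the authors' deposited table the departure of Bhlhe22 against duodenal reflux turned sign. The tissue tag goes with the null mixed reflux group and cannot be told apart from the departures given here.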

How the results depend on the processing

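The count of 708 genes under mixed reflux was 4392 with the null arrays as 3 samples, 1 (Nfe2l2) on the arrays of the comparison alone, 248 on arrays scanned that day, 1161 with scan day as a fixed block, 2685 without the 2 arrays of low Cy5 signal (an alternative chosen after seeing the data), 349 with median centring, 449 in the authors' deposited table and 2433 with muscle list means as covariates. Leaving out 1 array of the comparison gave 348 to 991, of the 414 genes 193 to 801, and of the 353 genes 155 to 710. The 414 genes became 3326 with 3 null samples, 1545 without the 2 low arrays, 194 with median centring, 253 in the authors' table and 2420 with muscle covariates. The 353 genes became 2766, 1671, 155, 202 and 3373 under the same settings, and 86 on arrays of that day, 1327 with a fixed block for scan day, 85 with one for slide, 233 without the 2 arrays of slide 1, 223 with local backgrounds as read and 568 without null gastric reflux replicate 2 (chosen after seeing the data). Fewer or more samples enter where arrays are left out or counted apart; otherwise the cause was not tested. Median centring moved the median of all genes to 0.15.

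Whether replicate numbers pair the samples could not be checked, since the null arrays count as 1 sample. With the replicate number as a block and 3 null samples the counts were 4033, 3009 and 2442. Signs turned for Cyp2a5 with the scanner software's log ratio (0.0015), Slc4a1 with slide as a fixed block (2.32), Nfkb1 as a mean of all probes (-0.55) and Bhlhe22 against duodenal reflux in the authors' table (-0.42). Of 4247 results of single called genes under alternatives, 3563 kept direction and call, 681 lost the call and 3 turned (Slc4a1 was not called). With slide as a fixed block the comparison with the mean of the other conditions could not be fitted, and arrays of that day do not hold all its groups. Signal over background limits genes not well above it in 1 group, given as bounds.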
